A study of Mus musculus with 6 samples.

Results

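Transforming growth factor beta (TGF-beta) signalling was described in mammary basal cells through 10 genes: the ligands Tgfb1, Tgfb2 and Tgfb3, the receptors Tgfbr1, Tgfbr2 and Tgfbr3, the signal transducer Smad3, the feedback inhibitors Smad7 and Skil, and the target gene Tgfbi. They were chosen by name from the pathway, and all 10 were found among the 22180 genes with a probe set of exactly 1 symbol. Each of them had 1 such probe set, so no choice between rows was needed. The cells came from 3 knockout (KO) and 3 wild type (WT) biological replicates, with 1 whole-transcript array each. The KO genotype was Trp53-/-, p16ink4a-/- and p19arf-/-, where p16ink4a and p19arf are both products of the Cdkn2a locus. Both genotypes were adult virgin females aged 8 to 14 weeks. Basal cells, the outer myoepithelial layer of the mammary ducts, were sorted by flow cytometry after bead depletion of blood and endothelial cells. How the alleles were made, and whether a replicate was 1 mouse or a pool, is not given in the sources used here. Without such a statement p-values measure the spread between these arrays.

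TGF-beta ligands are secreted in a latent form bound to matrix proteins and are released by integrins and proteases. The active ligand brings together the type II receptor Tgfbr2 and the type I receptor Tgfbr1, which phosphorylates Smad2 and Smad3, and these enter the nucleus with Smad4. In the mammary gland the pathway is known for restraining ductal growth and proliferation of epithelial cells, and for promoting matrix production. In many cell types its growth arrest involves Cdkn2b and Cdkn1a, kinase inhibitors related in function to p16Ink4a.

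The deposited values were log2 expression values after RMA, a method that subtracts background, puts arrays on one distribution and combines the probes of a set. Array medians lay between 5.22 and 5.39, and arrays correlated with r between 0.961 and 0.978 over all rows. Trp53 was not analysed here. Cdkn2a read 6.25, 6.31 and 6.39 on the KO arrays and 6.42, 5.84 and 6.48 on the WT arrays. The place of its probes relative to the deletion is not given in the sources used here, so this gene could not check the labels. All 11 measured basal markers lay above 5.77, the median over all genes and arrays, in WT cells, among them the basal keratin Krt14 at 13.25 ± 0.0391 in KO and 13.37 ± 0.122 in WT cells (SD, n = 3 each). Luminal markers were also bright, with 12 of 14 above that median in WT cells, and 13 of the 14 had lower means in KO cells. The luminal list mean lay between 7.77 and 8.23 on KO arrays and between 7.68 and 8.97 on WT arrays. Of markers of other cells, 7 of 11 fibroblast, 5 of 7 pericyte, 3 of 7 adipocyte, 2 of 11 immune and 2 of 10 endothelial genes lay above the median in WT cells. Ptprc, which encodes CD45, read 3.35 to 3.75 on KO arrays and 3.28 to 3.43 on WT arrays.

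No TGF-beta pathway gene passed the test between genotypes. With limma, fitted on the whole table with p-values adjusted over all 22180 genes, 0 of the 10 genes passed an adjusted p of 0.05, against a background of 0% of all genes, and each had an adjusted p of 1. At an unadjusted p under 0.05 the count was 0 of 10, against 3.32% of all genes, with 1.61% higher and 1.71% lower in KO cells. No gene had all KO arrays on one side of all WT arrays, against 7.68% of all genes, with 3.63% above and 4.05% below. Log2 fold changes, KO minus WT, ran between -0.39 and 0.24 with a median of -0.01, and the median over all genes was also -0.01. Of the 10 genes 3 had a higher and 7 a lower mean in KO cells, where 48.3% of all genes were higher and 51.7% lower, and quantile normalization turned this count to 6 higher and 4 lower. Array weights gave 5 and 5, and leaving out 1 array gave between 2 and 6 higher. The signal of all 10 lay above the all-gene median in WT cells. That median is not a detection limit, and probe sets of different genes have no common scale.

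**Figure D1:**
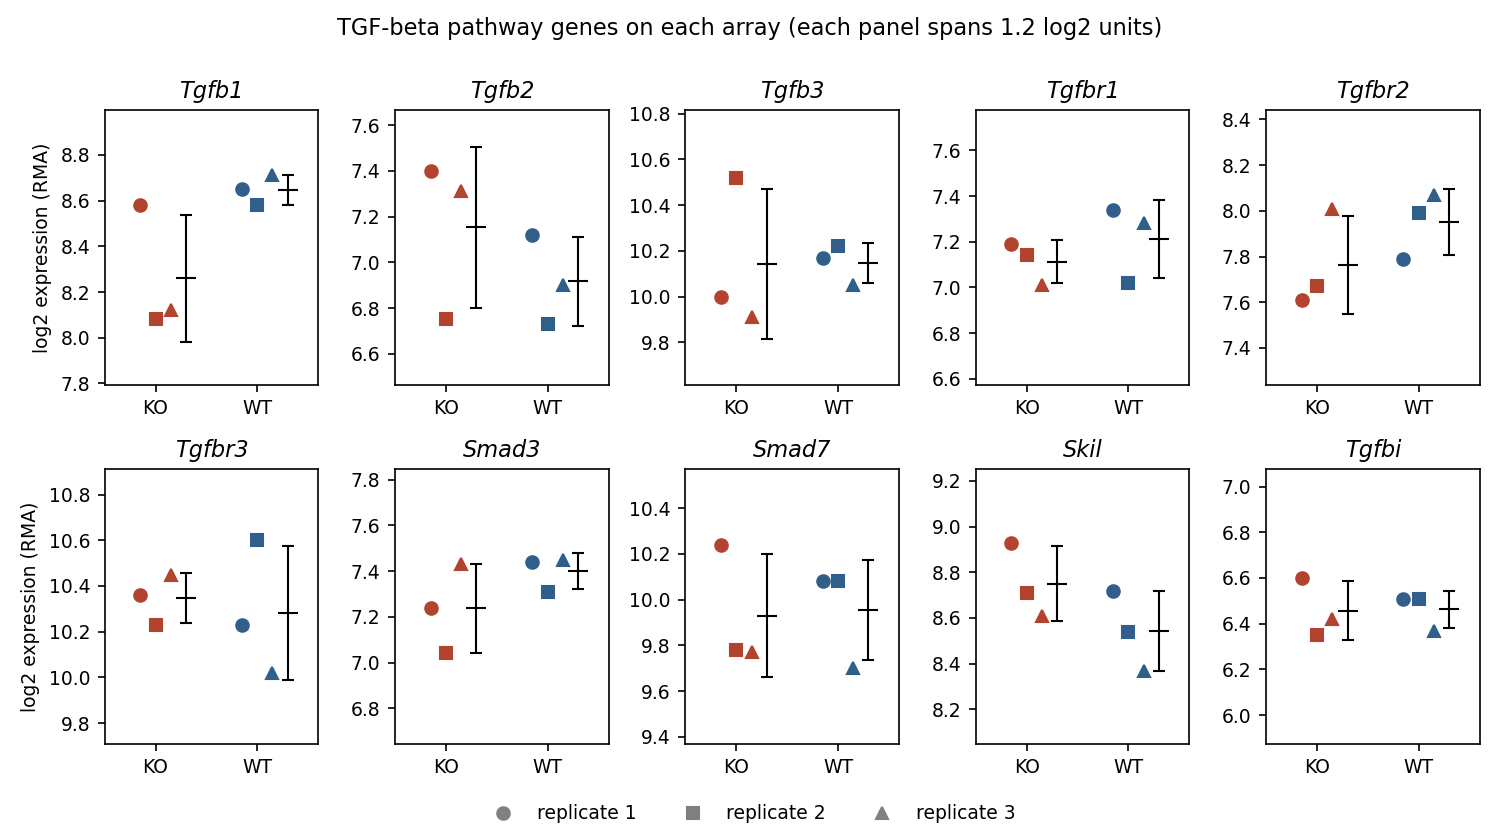
RMA log2 expression (y axis) of the 10 genes on the KO (left, red) and WT (right, blue) arrays. Symbols mark the replicate number, the black line is the mean and the bar its SD (n = 3), and every panel spans the same height; in each panel the groups overlap, most narrowly for Tgfb1, where KO replicate 1 and WT replicate 2 both read 8.58.

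Among the ligands, Tgfb1, the most widely expressed form of TGF-beta, showed the largest difference of the 10 genes. It read 8.58, 8.08 and 8.12 on the KO arrays, against 8.65, 8.58 and 8.71 on the WT arrays. KO replicates 2 and 3 were lower than every WT array, and KO replicate 1 equalled WT replicate 2 to the third decimal, at 8.577. The mean was 8.26 ± 0.276 in KO cells and 8.65 ± 0.0692 in WT cells (SD, n = 3 each), a log2 fold change of -0.39 (standard error, SE, 0.183). The 95% interval ran between -0.80 and 0.03, a KO level between 0.573 and 1.02 times that of WT (limma unadjusted p = 0.0634, adjusted p = 1). All 3 KO arrays lay below the WT mean. In sorted bulk cells, less of a transcript per cell and fewer of the cells that make it cannot be told apart. Without KO replicate 1 the log2 fold change was -0.55 (limma unadjusted p = 0.0237, adjusted p = 1), and without any 1 of the other arrays it lay between -0.30 and -0.42.

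Tgfb2, a ligand with roles in epithelial development, read 7.40, 6.75 and 7.31 on the KO arrays, against 7.12, 6.73 and 6.90 on the WT arrays. Replicate 2 was the lowest array in both genotypes, and KO replicates 1 and 3 lay above all WT arrays. Its log2 fold change was 0.24 (SE 0.214), and its interval ran between -0.25 and 0.72 (limma unadjusted p = 0.293). Tgfb3, the ligand known in the mammary gland for its part in involution after weaning, read 10.00, 10.52 and 9.91 on the KO arrays, against 10.17, 10.22 and 10.05 on the WT arrays. KO replicate 2 was the highest array and the other KO arrays the lowest, so the means of 10.14 in KO and 10.15 in WT cells differed by far less than the KO spread of 0.33 (SD). Within the KO group, replicate 2 was the highest array for Tgfb3 and the lowest for Tgfb1 and Tgfb2. WT replicate 2 held the same places within the WT group, while KO replicate 3 was low for both Tgfb1 and Tgfb3.

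The promoter windows of Tgfb1 and Tgfb2 are shown because these ligands had the largest differences in either direction. The sequences are RefSeq's for GRCm38.p6, 250 bases before to 50 after the annotated start, 5′ to 3′ on the gene's strand. Tgfb1 lies at chr7:25686752-25687051 on the plus strand and Tgfb2 at chr1:186705940-186706239 on the minus strand. Capitals mark a CAGA box, a letter pattern known from SMAD3 and SMAD4 binding.
Tgfb1: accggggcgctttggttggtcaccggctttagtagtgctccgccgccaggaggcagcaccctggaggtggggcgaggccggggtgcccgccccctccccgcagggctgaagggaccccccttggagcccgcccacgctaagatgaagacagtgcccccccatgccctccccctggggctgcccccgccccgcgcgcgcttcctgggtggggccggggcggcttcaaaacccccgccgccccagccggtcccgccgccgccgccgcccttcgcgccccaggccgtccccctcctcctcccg
Tgfb2: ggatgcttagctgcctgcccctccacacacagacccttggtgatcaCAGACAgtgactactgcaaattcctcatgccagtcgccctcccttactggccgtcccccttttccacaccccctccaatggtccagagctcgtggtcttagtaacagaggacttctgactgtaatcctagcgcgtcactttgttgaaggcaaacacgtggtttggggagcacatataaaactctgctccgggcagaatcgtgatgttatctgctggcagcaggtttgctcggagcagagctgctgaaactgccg

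Windows were found for 6 of the 10 genes, 7 windows in all with 2 for Tgfbr1. The CAGA box was searched as CAGACA, the palindromic SMAD element as GTCTAGAC and the AP-1 site as TGAGTCA, each on both strands, and these patterns share no match in the windows of the 10 genes. CAGACA occurred in 2 of the 7 windows, that of Tgfb2 and 1 of those of Tgfbr1, and in 21% of all 32851 windows. The palindrome occurred in 0 of the 7 and in 0.213% of all, and the AP-1 pattern in 0 of the 7 and in 5.2% of all. The Tgfb1 window was 77.0% G and C and the Tgfb2 window 54.3%, beside a median of 52.7% over all windows. A match is a description of letters, and none of these counts measures binding.

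Of the receptors, Tgfbr2, the ligand-binding kinase that starts signalling, read 7.61, 7.67 and 8.01 on the KO arrays, against 7.79, 7.99 and 8.07 on the WT arrays. The groups overlapped through KO replicate 3, while KO replicates 1 and 2 lay below all WT arrays. The log2 fold change was -0.19 (SE 0.18), with an interval between -0.60 and 0.21 (limma unadjusted p = 0.314). Tgfbr1, the type I kinase that phosphorylates Smad2 and Smad3, read 7.19, 7.14 and 7.01 on the KO arrays, against 7.34, 7.02 and 7.28 on the WT arrays. All 3 KO values lay below the WT mean of 7.21, WT replicate 2 lay among them, and the log2 fold change was -0.10 (SE 0.166).

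Tgfbr3, or betaglycan, a co-receptor that presents ligand and is shed as a soluble trap, read 10.36, 10.23 and 10.45 on the KO arrays, against 10.23, 10.60 and 10.02 on the WT arrays. The KO arrays all lay within the WT range. The WT spread of 0.293 (SD) was wider than the KO spread of 0.11, and the log2 fold change was 0.06 (SE 0.172). Its sign turned to -0.07 without WT replicate 3.

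Smad3, which carries the signal to the nucleus, read 7.24, 7.04 and 7.43 on the KO arrays, against 7.44, 7.31 and 7.45 on the WT arrays. KO replicates 1 and 2 lay below all WT arrays and KO replicate 3 among them, and the log2 fold change was -0.16 (SE 0.17), with an interval between -0.54 and 0.23 (limma unadjusted p = 0.373). Same-numbered arrays differed by -0.19, -0.27 and -0.02, each lower in KO cells, a sign pattern also held by Tgfb1 (-0.07, -0.50 and -0.59) and Tgfbr2 (-0.19, -0.33 and -0.06). Every value here is a difference on the log2 scale. Since no label says what a replicate number shares, the pairing was assumed. The share of all genes with this sign pattern was not counted. With replicate as a block the unadjusted limma p was 0.359 for Smad3, 0.0533 for Tgfb1 and 0.274 for Tgfbr2.

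Smad7 and Skil are both induced by TGF-beta and hold it back, Smad7 at the receptor and Skil, which encodes SnoN, as a SMAD corepressor. Skil read 8.93, 8.71 and 8.61 on the KO arrays, against 8.72, 8.54 and 8.37 on the WT arrays. All 3 KO arrays lay above the WT mean of 8.55, but WT replicate 1 lay above KO replicates 2 and 3. Same-numbered arrays differed by 0.20, 0.17 and 0.24, the narrowest range of such differences among the 10 genes. The log2 fold change was 0.20 (SE 0.172), with an interval between -0.19 and 0.59 (limma unadjusted p = 0.269, and unadjusted p = 0.222 with replicate as a block).

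Smad7 read 10.24, 9.78 and 9.77 on the KO arrays, against 10.08, 10.08 and 9.70 on the WT arrays. KO replicate 1 was the highest array and WT replicate 3 the lowest, and the means of 9.93 ± 0.269 in KO and 9.95 ± 0.217 in WT cells (SD, n = 3 each) differed by -0.02 with an interval between -0.44 and 0.40. Tgfbi, a secreted matrix protein named for its induction by TGF-beta, read 6.60, 6.35 and 6.42 on the KO arrays, against 6.51, 6.51 and 6.37 on the WT arrays. All 6 of its values lay within 0.25 log2 units, the narrowest range of the 10 genes, and the log2 fold change was -0.01 with an interval between -0.35 and 0.34. The signs of Smad7, Tgfbi and Tgfb3, whose log2 fold change was also -0.01, turned under quantile normalization, so none of these 3 has a direction.

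**Figure D2:**
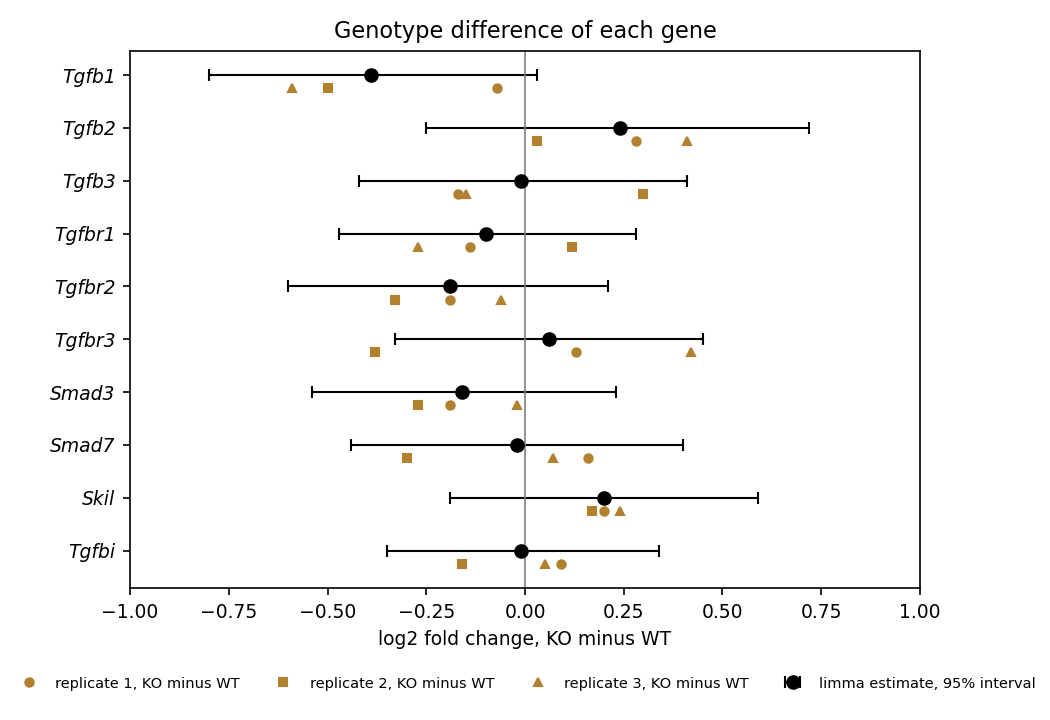
Log2 fold change, KO minus WT (x axis), of the 10 genes; black points are limma estimates with 95% intervals, and small symbols are differences between arrays of the same replicate number. Every interval includes 0 and lies within 1 log2 unit of it. The same-numbered differences of Tgfb1, Tgfb2, Tgfbr2, Smad3 and Skil lie on 1 side of 0. The share of all genes with this pattern was not counted.

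All 10 intervals lay within a log2 fold change of 1 in either direction, so a doubling or halving fell outside each of them, while smaller differences did not. The bound farthest from 0 was the lower one of Tgfb1. Standard errors of the 10 genes ran between 0.153 and 0.214, and 5 of the 10 were below the median of 0.173 over all genes. The residual spread of Tgfb2 was at percentile 73.0 of all genes and that of Tgfbi at percentile 12.3.

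The arrays that were high or low were shared by several genes across the genotypes. KO replicate 1 was the highest array for Tgfb2, Smad7, Skil and Tgfbi. WT replicate 3 was the highest for Tgfb1, Tgfbr2 and Smad3, and the lowest for Tgfbr3, Smad7 and Skil. Over the 6 arrays Smad7 and Tgfbi followed each other most closely among the 10 genes, with a Pearson r of 0.963, which was the same when each array was taken as a deviation from its genotype mean. Tgfbr2 and Skil ran opposite, with r of -0.903 and of -0.86 in the deviations. These 45 pairs rest on 6 arrays that share normalization and sort, so the correlations are descriptions without a test.

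**Figure D3:**
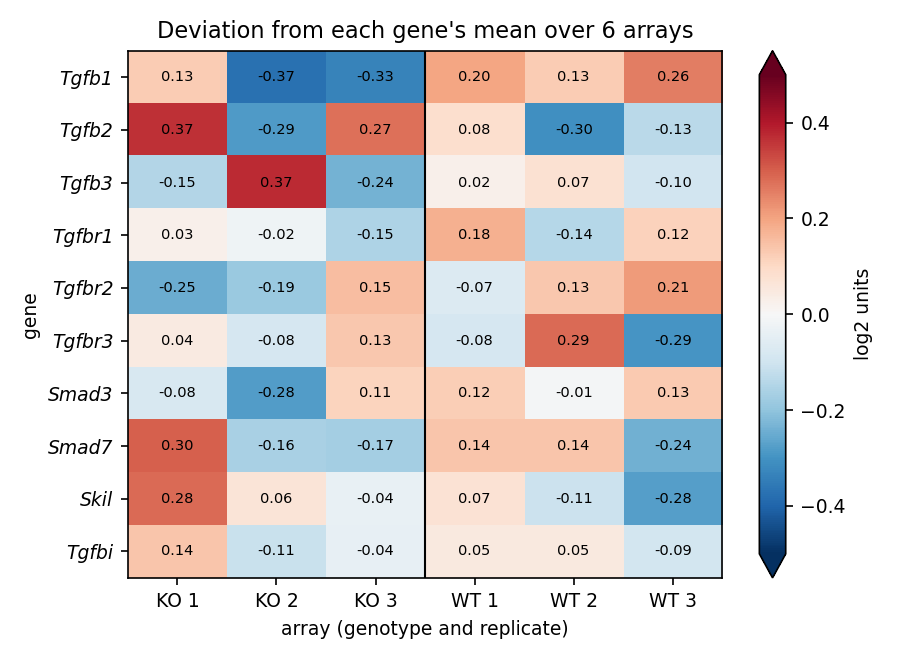
Deviation in log2 units of each array (columns, KO left and WT right of the line) from the gene's mean over 6 arrays (rows, the 10 genes), with colour and printed value. KO replicate 1 is high for Tgfb2, Smad7, Skil and Tgfbi, and WT replicate 3 is low for Smad7 and Skil and high for Tgfb1 and Tgfbr2.

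Among 74 candidates, the other members and the 65 measured genes of the wider pathway lists, the closest pattern to Tgfb1 was that of Timp1, at r = 0.807, and at r = 0.565 in deviations from the genotype means. For the other pairs given here the r in deviations lay between 0.79 and 0.968. Tgfb2 was closest to Itgav, the integrin chain shared by activators of latent TGF-beta, at r = 0.902. Tgfb3 was closest to Tgfb1i1 (Hic-5, a focal adhesion protein) at 0.938 and Tgfbr3 to Vegfa at 0.969. Tgfbr1 was closest to Il11 (r = 0.816), Tgfbr2 to Smad2 (r = 0.91), Smad3 to the TGF-beta induced inhibitor Pmepa1 (r = 0.893) and Skil to the coactivator Ep300 (r = 0.848). Each is the highest of 74 Pearson correlations over 6 arrays and is a description without a test.

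The wider pathway was described by 65 measured genes in 4 lists by role, of which 0 passed the adjusted threshold. At an unadjusted p under 0.05 there were 4 of 65, 3 higher and 1 lower in KO cells, against 3.32% of all genes, and 7 of 65 with replicate as a block, where the background was 5.01%. Without WT replicate 3 that count was 1 (Ccn1) beside 2.66% of all genes, and without WT replicate 1 it was 8 beside 8.06%. Without KO replicate 3 it was 6 beside 3.43%, and with array weights 10 beside 8.88%. Groups did not overlap for 5 of 65, against 7.68% of all genes. The median log2 fold change over the 65 was 0.04.

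Of 14 genes of the latent complex, activating integrins and extracellular binders, 7 had higher and 7 lower means, with a median of -0.01. Dcn encodes decorin, a proteoglycan that binds TGF-beta. It read 11.85, 11.93 and 12.11 on the KO arrays, against 11.92, 11.34 and 11.00 on the WT arrays, so WT replicate 1 lay among the KO arrays. The log2 fold change was 0.54 (SE 0.21) (limma unadjusted p = 0.0302, adjusted p = 1). Dcn is also a fibroblast marker, and 9 of 11 measured fibroblast markers, Dcn among them, had higher means in KO cells. Their log2 fold changes ran between -0.13 and 1.28, with a median of 0.13. Their list mean lay between 6.90 and 6.94 on KO arrays and between 6.38 and 6.64 on WT arrays, and its part in the Dcn value was not tested. For Ltbp1, which anchors latent ligand in the matrix, the log2 fold change was -0.40. The integrin chains Itgb8 and Itgb6, both activators of latent ligand, had 0.24 and -0.18. Itgb6 and Furin, the protease that cuts the ligand precursor (named after its value was seen, at -0.15), were the members of this list with all KO arrays below all WT arrays. Over all genes 4.05% had this order.

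Of 8 receptor partners, 4 had higher and 4 lower means. Groups without overlap numbered 0 of 8, against 7.68% of all genes. Bambi encodes a decoy receptor without kinase activity. It read 9.01, 9.13 and 8.31 on the KO arrays, against 8.48, 8.54 and 7.72 on the WT arrays. Replicate 3 was the lowest array in both genotypes, and same-numbered arrays differed by 0.53, 0.59 and 0.59. The log2 fold change was 0.57 (SE 0.284), with a limma unadjusted p of 0.0771 and an adjusted p of 1. With replicate as a block it was 0.57 (limma unadjusted p = 0.0057, adjusted p = 0.83), with array weights 0.86 (unadjusted p = 0.00884, adjusted p = 0.468) and without KO replicate 3 0.82 (unadjusted p = 0.0177, adjusted p = 1). Without any 1 of the other arrays it lay between 0.31 and 0.71, with limma unadjusted p between 0.0534 and 0.286. The smallest difference and largest p of these were without WT replicate 3, the lowest array for Bambi. Lrg1, a secreted glycoprotein that modulates endothelial TGF-beta signalling, had a log2 fold change of 0.50 with arrays that overlapped widely. The endothelial co-receptor Eng and the receptor Acvrl1 had -0.17 and -0.13.

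Of 16 other SMADs and regulators, 10 had higher and 6 lower means, with a median of 0.04 and a range between -0.14 and 0.28. Trim33, a ligase that acts on Smad4, and Smurf2, a ligase that is recruited by Smad7, both had a log2 fold change of 0.28. The coactivator Ep300 had 0.26 and the corepressor Tgif2 0.18. No gene of this list had an unadjusted limma p under 0.05 or groups without overlap, against 3.32% and 7.68% of all genes.

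Of 27 other genes known as TGF-beta targets in many cells, 16 had higher and 11 lower means, with a median of 0.06. Ccn1, a matrix protein also known as Cyr61, read 9.06, 9.23 and 9.06 on the KO arrays, against 8.65, 8.28 and 8.72 on the WT arrays, without overlap. Its log2 fold change was 0.56 (SE 0.175) (limma unadjusted p = 0.0105, adjusted p = 1). Cdkn2b, the kinase inhibitor gene next to Cdkn2a, read 6.85, 6.90 and 7.01 on the KO arrays, against 6.62, 6.37 and 6.45 on the WT arrays, a log2 fold change of 0.44 (SE 0.156) (limma unadjusted p = 0.0192, adjusted p = 1). Timp1, a protease inhibitor, went the other way, at 7.23, 6.11 and 7.15 on the KO arrays, against 7.34, 7.76 and 8.13 on the WT arrays. Its log2 fold change was -0.92 (SE 0.322), and all KO arrays lay below all WT arrays (limma unadjusted p = 0.0195, adjusted p = 1). Tnc, the matrix protein tenascin C, had -0.34.

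Ccn1 is also an immediate early gene in many cells, and the list of immediate early and dissociation genes had 18 of 18 means higher in KO cells. None of the 18 had an unadjusted limma p under 0.05 or groups without overlap, against 3.32% and 7.68% of all genes. The list mean was 9.95, 10.52 and 9.40 on KO arrays, and 9.63, 9.96 and 9.16 on WT arrays. On KO arrays the list mean and Ccn1 were both highest at replicate 2. On WT arrays replicate 2 had the highest list mean and the lowest Ccn1. The part of the list in the Ccn1 value was not tested. The known targets thus differed in sign at unadjusted p, with Ccn1 and Cdkn2b higher and Timp1 lower, and none passed over all genes. Cdkn2b lies next to Cdkn2a, which the KO genotype alters, and the part of that allele in the Cdkn2b value was not tested.

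**Figure D4:**
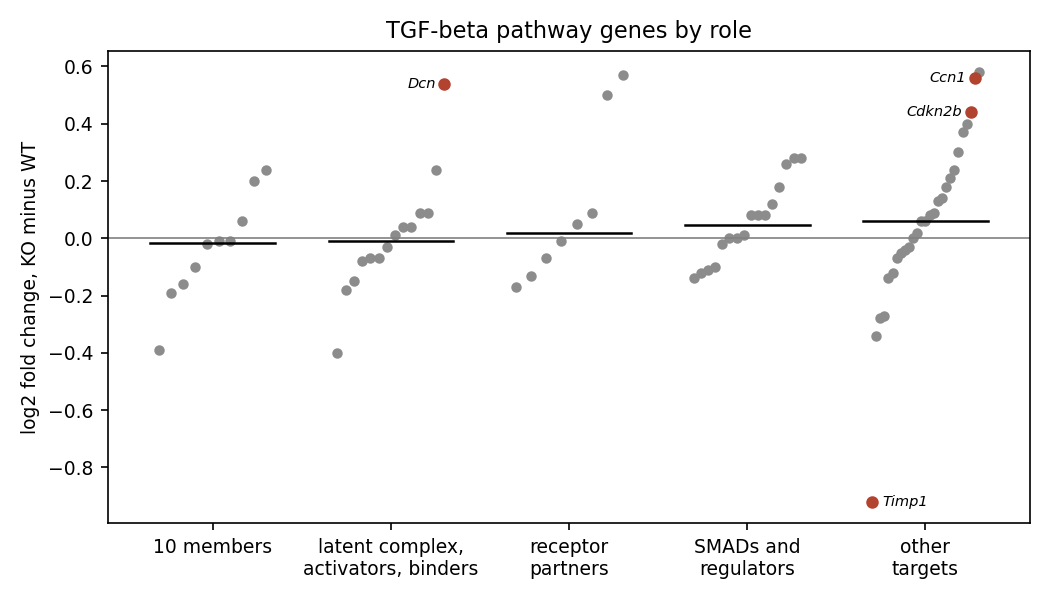
Log2 fold change, KO minus WT (y axis), of the 10 genes and of the 4 wider lists (x axis); each point is a gene, the black line is the list's median, and red points have an unadjusted limma p under 0.05. Red points are Dcn, Ccn1 and Cdkn2b above 0 and Timp1 below, the 10 genes have none, and list medians lie between -0.01 and 0.06.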

How the data were processed

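Gene expression was measured in sorted mammary basal cells on 6 arrays, 3 KO and 3 WT. The authors deposited 1 log2 value for each probe set and array. Per the submitters' processing notes the authors made them with RMA, and Transcriptome Analysis Console 4.0 is named there. Of 41345 rows, the platform annotation gave 23521 exactly 1 symbol, 1814 several and 16010 none. For each gene the row of highest mean over the arrays was kept, which left 22180 genes. KO was set against WT in a two-sided limma fit (version 3.58.1, R 4.3.3; lmFit and eBayes, prior variance following the mean). P-values were adjusted over all genes by Benjamini-Hochberg. With 3 arrays a group, exact permutation of the labels reaches 0.1 at the lowest, so none was used. The fit was tested on simulated data. Arrays have no read depth, and their number limits the precision.

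The 10 genes and the lists were chosen with earlier results of these data known. Named were the 10 genes and, in each wider list, the 4 genes of smallest p. For likeness the gene of highest Pearson r among the lists was named. Gene identifiers and promoter windows came from RefSeq tables. A planned comparison of the ligands' proteins was not made, because no protein sequences were used here. Across genes, the deviations of KO and WT arrays of the same number from their genotype means had r of 0.121, 0.25 and 0.127, each above 0.1, while WT replicate 1 correlated with KO replicate 3 at 0.13. Correlations this weak cannot show which arrays belong together. No label says what a number shares, so treating the numbers as pairs was an assumption. Alternatives used a constant prior, array weights, quantile normalization, median centring, no dim genes, other rows per gene and a replicate block, and omitted single arrays. Plots were made in matplotlib 3.10.9.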

Additional observations from a re-analysis of the deposited data

How the results depend on the processing

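Under all 14 alternatives 0 of 22180 genes (13319 with dim genes left out), 0 of the 10 genes and 0 of the 65 wider pathway genes passed the adjusted threshold. The smallest adjusted p of any of the 10 genes was 0.57, for Skil with array weights. Of 140 values of the 10 genes under the alternatives, 18 had the opposite sign, all in 4 genes. The array weights were 2.08 for KO replicate 1, 1.98 for WT replicate 3 and between 0.46 and 0.99 for the other arrays. With these weights Smad7 had 0.19 and Tgfbi 0.08. Quantile normalization gave 0.00405 for Smad7, 0.01 for Tgfbi and 0.01 for Tgfb3. The cause of these sign changes was not tested. Array weights kept the sign of the other 8 genes, among them Tgfbr3 at 0.20 in place of 0.06, Skil at 0.33 in place of 0.20 and Tgfbr2 at -0.28 in place of -0.19. Leaving out 1 array in turn gave log2 fold changes between -0.19 and 0.11 for Tgfb3, between -0.07 and 0.22 for Tgfbr3, between -0.18 and 0.06 for Smad7 and between -0.08 and 0.05 for Tgfbi. It kept the sign of the other 6 genes, between -0.55 and -0.30 for Tgfb1, 0.12 and 0.44 for Tgfb2, -0.19 and -0.03 for Tgfbr1, -0.32 and -0.11 for Tgfbr2, -0.26 and -0.06 for Smad3, and 0.11 and 0.29 for Skil. The replicate block changed no call, with a smallest adjusted p of 0.208 over all genes and 1112 genes at an unadjusted p under 0.05 in place of 736. That count was 1970 with array weights and 1788 without WT replicate 1. Tgfb1 had an unadjusted p of 0.0461 without the mean-dependent prior and of 0.18 without KO replicate 2 or KO replicate 3.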

Other observations

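Several well known TGF-beta targets that the rule for named genes did not take are given here, chosen after their values were seen. Acta2 and Tagln, contractile genes of the myoepithelial layer, averaged 12.37 ± 0.163 and 12.53 ± 0.178 in KO cells, against 12.44 ± 0.1 and 12.57 ± 0.163 in WT cells (SD, n = 3 each). Snai2, a transcription factor of basal cells, read 11.13, 10.70 and 11.53 on KO arrays, against 11.42, 9.94 and 10.90 on WT arrays, with WT replicate 2 the lowest array. For Fn1, the fibronectin gene, the log2 fold change was -0.05 and for the collagen gene Col1a1 it was 0.13, with intervals between -0.57 and 0.46 and between -0.23 and 0.49. Il11 read 6.97, 7.06 and 6.88 on KO arrays, against 8.00, 6.65 and 7.11 on WT arrays, so its log2 fold change of -0.28 rests on WT replicate 1.

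Gadd45b and Junb, TGF-beta targets that also respond to stress, had wide spreads in both genotypes. Gadd45b read 11.70, 12.47 and 10.59 on KO arrays, against 11.30, 11.57 and 10.15 on WT arrays, with replicate 3 lowest in each, and same-numbered arrays differed by 0.40, 0.90 and 0.43. Junb read 11.37, 11.95 and 10.49 on KO arrays, against 10.73, 11.37 and 10.51 on WT arrays. The immediate early and dissociation list, which holds Junb, was also lowest at replicate 3 in both genotypes, at 9.40 in KO and 9.16 in WT cells, and its part in these values was not tested.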
